A study of Homo sapiens with 12 samples.

Results

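Structured noncoding RNAs of HEK293T cells, an established line from human embryonic kidney with the SV40 large T antigen, were followed through 12 RNA sequencing libraries. The 8 genes were chosen by name: RN7SK (7SK RNA), RN7SL1 and RN7SL2 (7SL RNA), RMRP (RNase MRP RNA), RPPH1 (RNase P RNA), TERC (telomerase RNA), and RNY1 and RNY3 (Y RNAs). They are 8 of the 58735 genes in the count tables. All but TERC, which RNA polymerase II makes, are transcribed by RNA polymerase III. Of the 8, 3 genes (RN7SL2, RNY1 and RNY3) had any counts and 5 were at 0 in every library.

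These RNAs work as the cores of protein particles rather than as messages. 7SK RNA holds the kinase P-TEFb in an inactive form and so restrains the release of paused RNA polymerase II. 7SL RNA is the scaffold of the signal recognition particle, which brings ribosomes that make secreted proteins to the endoplasmic reticulum. RNase P RNA and RNase MRP RNA are related ribozyme cores that process transfer RNA and ribosomal RNA precursors, telomerase RNA carries the template for telomere repeats, and Y RNAs bind the Ro60 and La proteins.

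Cells in 24-well plates received, by Lipofectamine 2000, 500 ng of a plasmid for miR-211, a microRNA, or of a control plasmid. Other cells received 1 nM of a Dicer-substrate siRNA that targets the spliceosomal U1 RNA, or a scrambled oligo, whose amount the labels do not give. The titles of these 6 libraries add WT, which the labels do not explain and the plasmid titles lack. Total RNA was taken 24 h after transfection, and each of the 4 groups has 3 libraries of paired 126 nt reads. The series title is about splicing and intronic microRNAs, and no label names any of the 8 genes as a question of the study. The labels give only a minimum for the share of cells that took up plasmid, so a plasmid library may mix transfected and untransfected cells, and in bulk RNA fewer expressing cells and less RNA per cell cannot be told apart.

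Library totals, summed over genes, were 6070116 to 8459646 counts for the miR-211 plasmid, 6226067 to 7484566 for the control plasmid, 4515728 to 6343000 for U1 siRNA and 5903205 to 9290686 for the scrambled oligo. One library, U1 siRNA replicate 2, differed from the rest, with the lowest total and 44.5% of its uniquely mapped pairs outside annotated exons, against 14.5% to 25.5% in the other 11 libraries. The MIR211 gene had 254.3 ± 17.6 CPM (counts per 1000000 counts over all genes) with the miR-211 plasmid, against 0.530 ± 0.663 CPM with the control plasmid (SD, n = 3 each). The sum over the 15 annotated U1 genes was 16.7 ± 2.51 CPM with U1 siRNA, against 18.4 ± 1.65 CPM for the scrambled oligo (SD, n = 3 each). These 2 groups overlapped. The U1 sum leaves out pairs that map to several places, so it need not follow total U1 RNA and does not measure the knockdown. Of the markers used to check the cell line, vimentin (VIM) averaged 52.9 CPM, the neurofilament genes NEFM and NEFL 20.8 and 86.4 CPM, and KRT18 and KRT8 8.81 and 3.25 CPM, while PAX2 and LHX1 were at 0.205 and 0.207 CPM. Of 13 markers of fibroblasts, blood, liver and epithelium, COL1A1 was the highest at 2.36 CPM.

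RN7SL1 and RN7SL2 are near copies: 295 of 300 aligned bases were identical (98.3%). RN7SL2 had 388 counts over the 12 libraries and RN7SL1 had 0. The counting rule fixes that 0, because RN7SL1 lies wholly in the exon of a second gene, as described below. The Y RNA genes RNY1 and RNY3 are the shortest of the 8, had the lowest counts of the 3 counted genes and share 81 of 113 aligned positions (71.7%).

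The sequences below are from GENCODE release 29 on GRCh38, 5′ to 3′ as DNA. The RNase MRP gene is shown because the annotation lists it again, as a second entry of the same name that leaves out only the 4 bases in capitals.

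RMRP: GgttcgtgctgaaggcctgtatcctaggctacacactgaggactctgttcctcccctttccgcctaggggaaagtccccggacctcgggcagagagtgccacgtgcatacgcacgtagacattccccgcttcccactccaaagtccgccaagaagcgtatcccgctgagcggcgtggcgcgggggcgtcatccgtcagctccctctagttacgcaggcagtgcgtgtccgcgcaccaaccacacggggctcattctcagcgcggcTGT

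The first 60 bases of the telomerase RNA gene are shown because they hold the template for the telomere repeat, bases 46 to 56, in capitals.

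TERC, bases 1 to 60: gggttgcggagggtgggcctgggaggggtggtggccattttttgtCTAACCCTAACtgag

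The first result is which of these RNAs the count tables can see. RN7SK (ENSG00000283293, chromosome 6, 52995621 to 52995948, plus strand), RN7SL1 (ENSG00000276168, chromosome 14, 49586580 to 49586878, plus strand), RMRP (ENSG00000269900, chromosome 9, 35657751 to 35658018, minus strand), RPPH1 (ENSG00000277209, chromosome 14, 20343075 to 20343407, minus strand) and TERC (ENSG00000270141, chromosome 3, 169764520 to 169765060, minus strand) had 0 counts in all 12 libraries, in the unstranded column and in both strand columns. A count of 0 allows up to 3 counts, which is 0.323 to 0.664 CPM depending on the library, of pairs assigned to that gene alone. It limits assigned pairs and not the RNA, since a pair that falls in more than 1 gene is counted for none.

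Each of these 5 genes shares all or most of its bases with the exon of a second annotated gene on the same strand, and that second entry was at 0 as well. RF00100, a 331-base entry of the 7SK family, holds all 328 bases of RN7SK. AL139099.4, of 300 bases, holds all 299 bases of RN7SL1. AL355075.4, of 638 bases, holds all 333 bases of RPPH1.

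The other 2 genes were covered in part. The second RMRP entry (ENSG00000277027) covers 264 of the 268 bases of RMRP, 98.5%. RF00024, a telomerase RNA entry, covers 438 of the 541 bases of TERC, 81.0%. That leaves 103 bases of TERC in that gene alone, split over both of its ends, and no pair was counted for it. The bases left free in RMRP and in TERC are fewer than the 126 nt of a read. A full-length read lying wholly in either gene would touch the second entry too, and so be counted for none.

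The 3 counted genes have no such second entry. RN7SL2 (ENSG00000274012, chromosome 14, 49862550 to 49862849, minus strand), RNY1 (ENSG00000201098, chromosome 7, 148987136 to 148987248, minus strand) and RNY3 (ENSG00000202354, chromosome 7, 148983755 to 148983856, plus strand) share 0 bases with the exons of any other gene. All 8 are single-exon genes, so exon and gene are the same here.

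Under this counting rule a gene wholly covered by exons of other genes on its strand can have no count. All 1139 such genes (100%) were at 0, which the rule fixes and which says nothing of their RNA. Of the 41758 genes with no covered base, 5953 (14.3%) were at 0. Among small RNA genes of the types snRNA, misc_RNA and ribozyme, 160 of 160 wholly covered genes were at 0, again by the rule, against 972 of 3794 (25.6%) with none of their bases covered. Of the 565 genes covered over 80% or more but not all of their exon bases, as RMRP and TERC are, 310 (54.9%) were at 0. These genes were not matched to RMRP and TERC by the length of their uncovered stretches.

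**Figure D1:**
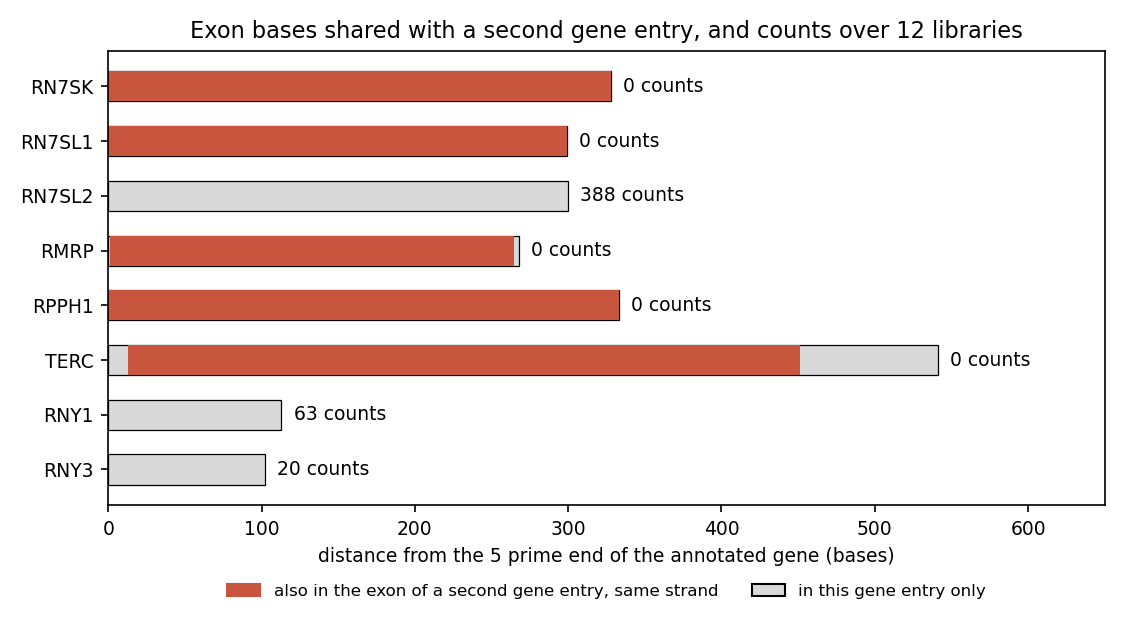
Each bar is a gene drawn to its annotated exon length in bases from the 5 prime end, with the bases that also lie in the exon of a second gene on the same strand in red and the rest in grey. The number is the summed count over 12 libraries: the 5 genes with red stretches are at 0, and the 3 all-grey genes have 388, 63 and 20 counts.

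Pairs called ambiguous, which lie in more than 1 gene, were 6.93% to 10.8% of uniquely mapped pairs, and the tables do not say which genes they came from. How much of that share is 7SK, 7SL, RNase P, RNase MRP or telomerase RNA was not measured. PARP2, a DNA repair gene whose exons overlap the AL355075.4 entry near RPPH1, had 93.0 ± 5.14 CPM over its whole length (SD, n = 12).

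The 8 genes also differ in how much of their sequence other genes share. Every 50-base window of each gene was searched for exactly, on both strands, in the transcripts of all other annotated genes, leaving out the second entries above. RMRP, RPPH1 and TERC had 0 of 219, 0 of 284 and 0 of 492 windows in another gene. RN7SK had 215 of 279 windows (77.1%) in 14 other genes and RN7SL1 211 of 250 (84.4%) in 9.

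Among the counted genes, RN7SL2 had 217 of 251 windows (86.5%) elsewhere, which leaves 34 of its own. RNY1 had 16 of 64 (25%), and RNY3 had all 53 of 53 windows (100%) in 25 other genes. A read pair spans more than 50 bases, so these shares describe the sequence and are not shares of lost reads. Pairs that map to several places made up 2.72% to 3.33% of all pairs.

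**Figure D2:**
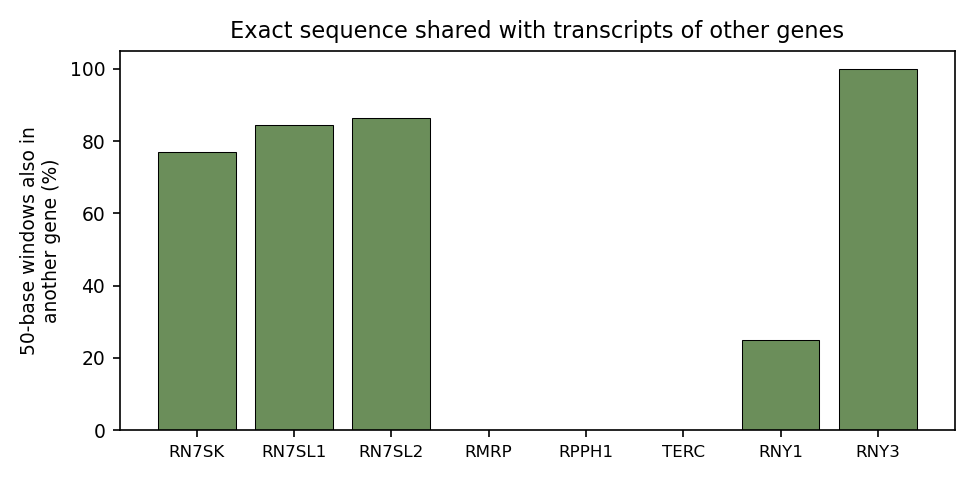
Bars give, for each of the 8 genes, the percentage of its 50-base windows found exactly in the transcripts of another gene. RMRP, RPPH1 and TERC are at 0%, RNY1 is at 25%, and RN7SK, RN7SL1, RN7SL2 and RNY3 lie between 77.1% and 100%.

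Among the counted genes, the 7SL gene RN7SL2 had the most assigned pairs. The order of levels below is of pairs assigned to 1 gene, and is not corrected for sequence shared with other genes. Averaged over the 12 libraries it had 4.82 ± 2.24 CPM, RNY1 0.756 ± 0.334 CPM and RNY3 0.238 ± 0.261 CPM (SD, n = 12 each). Per kilobase of exon the levels were 16.1 ± 7.45 CPM for RN7SL2, 6.69 ± 2.96 CPM for RNY1 and 2.33 ± 2.56 CPM for RNY3, and each gene's range over the libraries overlapped that of the next in this order. By mean CPM, RN7SL2 stood above 81.3% of the 49409 genes with any count, RNY1 above 68.5% and RNY3 above 52.1%. 7SK and 7SL RNA are known as abundant RNAs of human cells, and the sources used here do not say how RNA was selected for the libraries.

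RN7SL2 is the only one of the 8 whose counts passed the expression filter. Its counts were 46, 17 and 50 in replicates 1 to 3 with the miR-211 plasmid, against 34, 26 and 25 with the control plasmid. In CPM these are 7.58, 2.01 and 6.47 with the miR-211 plasmid, against 5.46, 3.74 and 3.34 with the control plasmid. The groups overlapped, because miR-211 replicate 2 was the lowest of the 6 libraries while the other 2 miR-211 libraries were the highest.

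RN7SL2 averaged 5.35 ± 2.95 CPM with the miR-211 plasmid and 4.18 ± 1.13 CPM with the control plasmid (SD, n = 3 each). The log2 fold change was 0.35 (SE 0.37, edgeR quasi-likelihood test, adjusted p 0.996, and 0.803 with replicate number as a block, where the log2 fold change was also 0.35 with SE 0.28). In this comparison the test called 1 of 12685 genes at an adjusted p under 0.05, 0.00788%. RN7SL2, the only one of the 8 tested, was not called. The 113 counts with the miR-211 plasmid and 85 with the control plasmid give a ratio of depth-scaled totals of 1.23 (95% exact interval 0.923 to 1.66, counting error only). Leaving out 1 library at a time, the log2 fold change was lowest, 0.03, without miR-211 replicate 1 and highest, 0.77, without miR-211 replicate 2 (adjusted p 0.690 in that fit).

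With U1 siRNA, RN7SL2 had 61, 19 and 14 counts in replicates 1 to 3, against 42, 24 and 30 with the scrambled oligo. In CPM these are 9.62, 4.21 and 2.44 with U1 siRNA, against 5.72, 4.07 and 3.23 with the scrambled oligo. U1 siRNA held both the highest and the lowest of the 6 libraries, so the scrambled oligo lay inside its range. Means were 5.42 ± 3.74 CPM for U1 siRNA and 4.34 ± 1.27 CPM for the scrambled oligo (SD, n = 3 each). The log2 fold change was 0.34 (SE 0.44, edgeR, adjusted p 0.9999). RN7SL2, the only one of the 8 tested, was not called, and neither was any other of the 12413 genes tested (0%). In edgeR 196 of these genes had an unadjusted p under 0.05, and DESeq2 called 0 with 77 such genes. Both are a smaller share than the 0.05 that evenly spread p-values would give. The 0 called therefore does not show that no gene changed. Without U1 siRNA replicate 1 the log2 fold change was -0.42. The ratio of totals was 1.33 (95% exact interval 0.989 to 1.79).

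Read across all 4 groups, RN7SL2 had 198 counts in the 6 plasmid libraries and 190 in the 6 oligo libraries. The log2 fold change of plasmid over oligo libraries was -0.05 (SE 0.32, edgeR, adjusted p 0.969). That test called 25 of 13520 genes (0.185%), and RN7SL2, the only one of the 8 tested, was not among them. The ratio of totals was 0.950 (95% exact interval 0.775 to 1.17). Kind of transfection and experiment cannot be told apart in this comparison. The effect of miR-211 minus the effect of U1 siRNA was -0.01 on the log2 scale (SE 0.64, edgeR, adjusted p 0.999), in a test that called 1 of 13520 genes (0.0074%). In 4 of 4 groups the library numbered 1 was the highest in CPM.

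RN7SL3, another 7SL gene, which was not among the 8, had 3, 4 and 3 counts with the miR-211 plasmid, against 5, 4 and 4 with the control plasmid. With U1 siRNA it had 13, 1 and 1 counts, against 0, 4 and 6 with the scrambled oligo. U1 siRNA replicate 1 was the highest of the 12 libraries for RN7SL3 as it was for RN7SL2. The ratio of totals was 0.714 with the miR-211 plasmid (95% exact interval 0.280 to 1.76) and 2.04 with U1 siRNA (0.856 to 5.07).

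The Y RNA genes were counted at a few pairs per library. RNY1 has 113 bases and RNY3 102, fewer than the 126 nt of a read. A read aligned over its full length to either gene therefore reaches into flanking sequence. Whether the pairs counted came from the Y RNAs was not tested. RNY1 had 2, 5 and 3 counts with the miR-211 plasmid, against 7, 7 and 3 with the control plasmid. In CPM these are 0.330, 0.591 and 0.388 with the miR-211 plasmid, against 1.12, 1.01 and 0.401 with the control plasmid. The groups overlapped through control replicate 3, which lay between the miR-211 libraries. Means were 0.436 ± 0.137 CPM with the miR-211 plasmid and 0.844 ± 0.388 CPM with the control plasmid (SD, n = 3 each), and the ratio of totals, from 10 and 17 counts, was 0.546 (95% exact interval 0.223 to 1.26).

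RNY1 had 3, 3 and 4 counts with U1 siRNA, against 8, 6 and 12 with the scrambled oligo. In CPM these are 0.473, 0.664 and 0.697 with U1 siRNA, against 1.09, 1.02 and 1.29 with the scrambled oligo. All 3 U1 siRNA libraries were below all 3 scrambled oligo libraries, as were 712 of the 46789 genes with a count in these 6 libraries (1.52%). That share includes genes with too few counts to separate the groups, so it is not a chance rate for RNY1. Means were 0.611 ± 0.121 CPM for U1 siRNA and 1.13 ± 0.143 CPM for the scrambled oligo (SD, n = 3 each). The ratio of totals, from 10 and 26 counts, was 0.522, with a 95% exact interval of 0.225 to 1.12 that includes 1. It ran from 0.479 to 0.592 when each of the 6 libraries was left out in turn.

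RNY1 was below the expression filter, so it was tested only in a fit without that filter. There its log2 fold change was -0.85 with the miR-211 plasmid (SE 0.71, edgeR, adjusted p 0.853) and -0.97 with U1 siRNA (SE 0.78, edgeR, adjusted p 0.979). The difference between both effects was 0.11 (SE 1.11) in a fit that called 0.00607% of 49409 genes. In the fits of each comparison 0 of the 3 counted members passed in either comparison, where 0.00452% of 44268 genes and 0.015% of 46789 genes did. The separate strand columns did not give the same value for U1 siRNA: the mean differed by 0.03 CPM in strand column 3 and by -0.91 CPM in strand column 4. Over the 12 libraries RNY1 had only 31 and 32 counts in these columns, and a dependence on strand was not tested.

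RNY3 had 0, 2 and 1 counts with the miR-211 plasmid, against 1, 1 and 1 with the control plasmid. With U1 siRNA it had 6, 1 and 1 counts, against 0, 1 and 5 with the scrambled oligo. U1 siRNA replicate 1 and scrambled oligo replicate 3 held 6 and 5 of its 20 counts. The ratio of totals with U1 siRNA was 1.81 (95% exact interval 0.551 to 6.33), 0.732 without U1 siRNA replicate 1 and 6.38 without scrambled oligo replicate 3. No difference in RNY3 was detectable at this depth.

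Between the plasmid and the oligo experiment, RNY1 had 27 counts in plasmid libraries and 36 in oligo libraries, a ratio of totals of 0.684 (95% exact interval 0.399 to 1.16). RNY3 had 6 counts in plasmid libraries and 14 in oligo libraries, a ratio of 0.391 (0.123 to 1.08). In the fit without the expression filter their log2 fold changes were -0.37 and -1.15 (edgeR, adjusted p 0.993 and 0.823), where 0.111% of 49409 genes were called. RNY4, another Y RNA gene outside the 8, had 11 counts in the 12 libraries, 3 of them in U1 siRNA replicate 1.

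**Figure D3:**
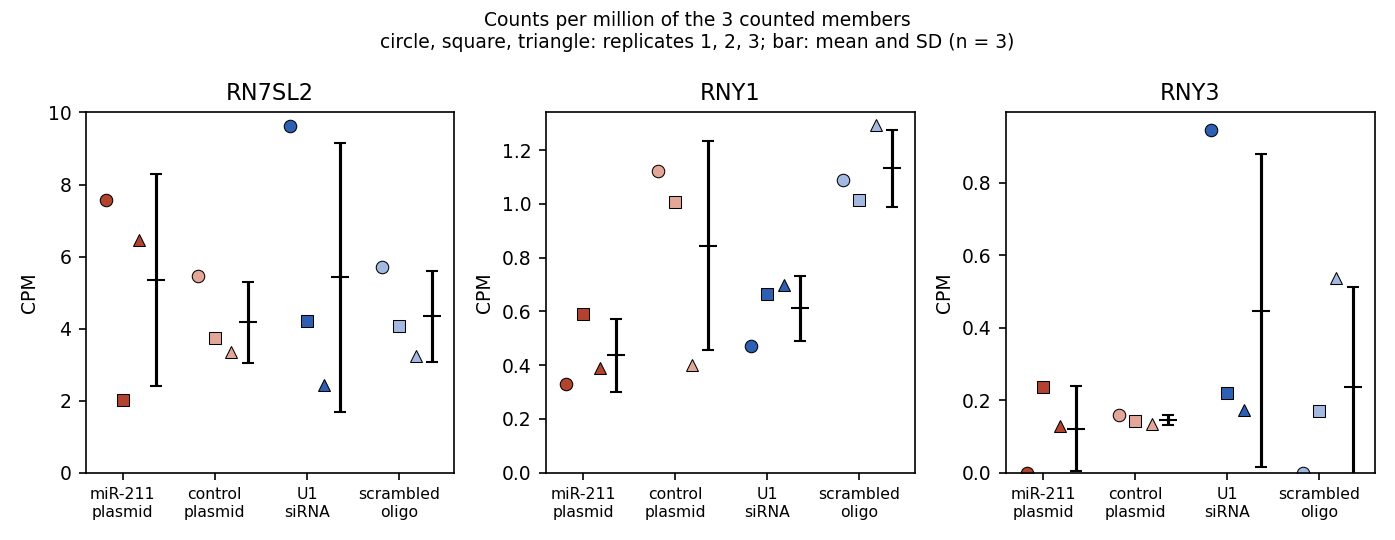
Points are the CPM of RN7SL2, RNY1 and RNY3 in each library, by group, with the mean and SD of 3 libraries beside them (the axis stops at 0, below which an SD bar of RNY3 would run). In both comparisons of a treatment with its own control the groups of RN7SL2 and of RNY3 overlap, and the 3 U1 siRNA points of RNY1, 0.473 to 0.697 CPM, lie below the 3 scrambled oligo points, 1.02 to 1.29 CPM.

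Summed over all their entries, pseudogene copies, which descend from these RNAs and are spread over the genome, took more pairs than the genes themselves. The 677 annotated copies of 7SL (RN7SL genes other than RN7SL1, RN7SL2 and RN7SL3) held 5117 counts, against 388 for RN7SL2, and 546 of them (80.7%) had at least 1 count. The 293 copies of 7SK held 1530 counts, against 0 for RN7SK, a 0 that the counting rule fixes. The 758 entries of the Y RNA family RF00019 held 4134 counts, and the 16 RNY1 copies and 15 RNY3 copies held 129 and 66. No single copy dominated the large families: RN7SL832P had 190 counts (3.71% of its family) and RN7SKP80 had 120 (7.84%). RN7SL832P has 1756 annotated exon bases, and no single 7SL copy had as many counts as RN7SL2. Whether a pair counted for a copy came from transcription of the copy, from an intron or intergenic region around it, or from the parent RNA was not tested.

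The copies peaked in another library than RN7SL2 did. With U1 siRNA the 7SL copies had 48.9, 173.8 and 58.2 CPM in replicates 1 to 3, against 47.0, 59.8 and 73.1 CPM with the scrambled oligo. The 7SK copies had 11.98, 61.3 and 15.2 CPM with U1 siRNA, against 14.04, 17.8 and 22.9 CPM with the scrambled oligo. U1 siRNA replicate 2 was the highest of all 12 libraries for both, and it is the library with 44.5% of unique pairs outside exons. RN7SL2 was highest in U1 siRNA replicate 1. The peak in U1 siRNA replicate 2 was not particular to these copies. That library was also the highest for U6 snRNA genes and copies (188 CPM), all snRNA genes (293.6 CPM) and all snoRNA genes (201.5 CPM).

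Summed over replicates, the ratio of U1 siRNA to scrambled oligo totals was 1.41 for 7SL copies (95% exact interval 1.31 to 1.52) and 1.42 for 7SK copies (1.24 to 1.63). Without U1 siRNA replicate 2 these ratios were 0.872 (0.793 to 0.958) and 0.722 (0.599 to 0.867), so 1 library turned the direction. For the RF00019 entries the ratio was 1.30 (1.19 to 1.41) with that library and 0.901 (0.811 to 0.999) without it. The intervals cover counting error only, and the groups overlapped in each case.

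With the miR-211 plasmid the 7SL copies had 71.2, 42.8 and 67.5 CPM in replicates 1 to 3, against 60.4, 38.1 and 47.3 CPM with the control plasmid. The 7SK copies had 22.2, 12.9 and 22.4 CPM with the miR-211 plasmid, against 16.2, 8.78 and 12.02 CPM with the control plasmid. The groups overlapped, but each miR-211 library was above the control library of the same number in both families. U6 snRNA genes and copies, summed, had the same order. They had 98.0, 61.7 and 83.7 CPM with the miR-211 plasmid, against 85.45, 56.3 and 64.5 CPM with the control plasmid. All snoRNA genes, summed, did not, with 149.9 CPM in miR-211 replicate 3 against 159.5 CPM in control replicate 3. The share of unique pairs outside exons ran the same way, at 24.3%, 16.3% and 22.9% with the miR-211 plasmid, against 21.8%, 14.5% and 16.8% with the control plasmid. Its part in the copies' counts was not tested. The ratio of totals was 1.23 for 7SL copies (95% exact interval 1.13 to 1.33) and 1.54 for 7SK copies (1.31 to 1.80), and it was 0.979 for RF00019 entries (0.895 to 1.07).

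**Figure D4:**
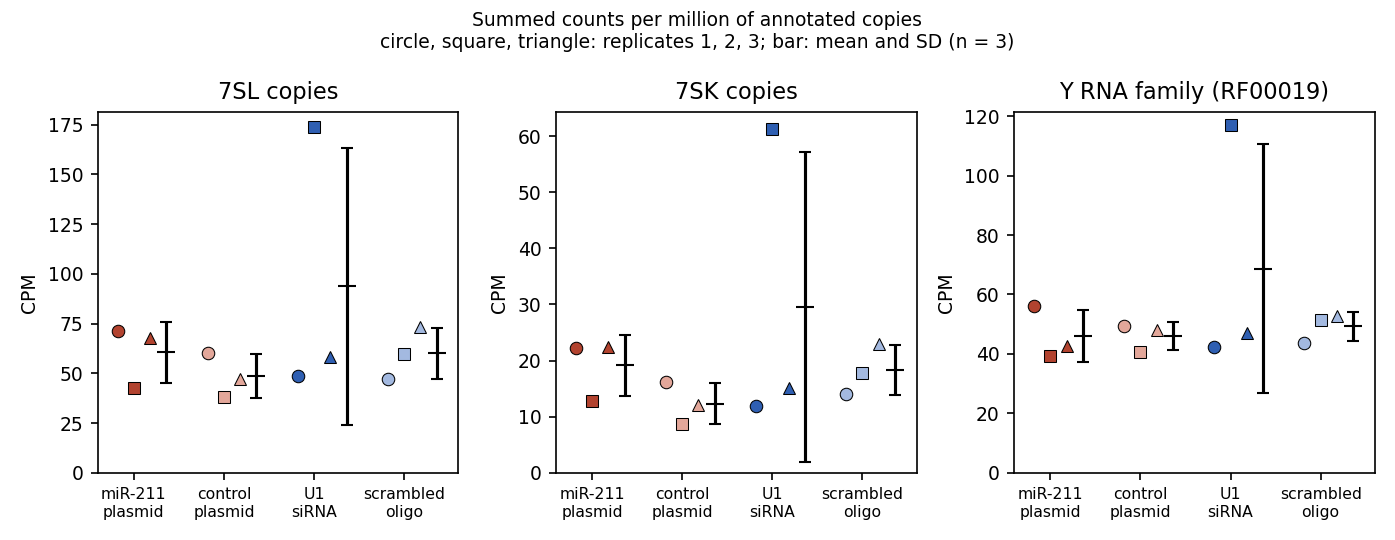
Points are the summed CPM per library of annotated 7SL copies, 7SK copies and RF00019 entries of the Y RNA family, by group, with the mean and SD of 3 libraries. U1 siRNA replicate 2, at 173.8, 61.3 and 116.9 CPM, is far above the other 11 libraries in all 3 panels.

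Most genes for the proteins of these particles passed the expression filter. None of the partner genes tested, in 6 lists, was called in the miR-211 or the U1 siRNA comparison. Of the 7SK particle and P-TEFb, all 7 genes were tested. With the miR-211 plasmid 1 was higher and 6 lower in value (median log2 fold change -0.08, against 0.01 over all genes tested). LARP7, which binds the 3′ end of 7SK RNA, was the lowest at -0.12 (SE 0.09), with 60.1 ± 2.86 CPM with the miR-211 plasmid and 66.7 ± 2.48 CPM with the control plasmid (SD, n = 3 each). With U1 siRNA 4 were higher and 3 lower, with a median of 0.04, against 0.02 over all genes tested, and CDK9, the kinase of P-TEFb, was the highest at 0.26 (SE 0.16) while its cyclin CCNT2 was the lowest at -0.17 (SE 0.08).

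All 8 genes of the signal recognition particle and its receptor were tested. The median was -0.05 with the miR-211 plasmid (3 higher, 5 lower in value) and -0.05 with U1 siRNA (2 higher, 6 lower). SRP9, which binds the Alu end of 7SL RNA with SRP14, had 949.6 ± 93.1 CPM with the miR-211 plasmid, 1025 ± 49.7 CPM with the control plasmid, 1097 ± 41.1 CPM for U1 siRNA and 1113 ± 100.3 CPM for the scrambled oligo. SRP19, which binds the other end of 7SL RNA, was the lowest in both comparisons, at -0.12 (SE 0.10) and -0.18 (SE 0.10). SRP68 was the highest with U1 siRNA at 0.45 (SE 0.36), where its 3 libraries averaged 50.8 ± 32.9 CPM, against 37.2 ± 12.7 CPM with the scrambled oligo. SRPRA, a receptor subunit, was the highest with the miR-211 plasmid at 0.09 (SE 0.08).

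Of the 11 proteins shared by or particular to RNase P and RNase MRP, 10 were tested. With the miR-211 plasmid 8 were higher in value and 2 lower, with a median of 0.04, and with U1 siRNA 9 were higher and 1 lower, with a median of 0.09. Over all genes tested 51.8% and 54.7% were higher in value. POP5 was the highest with the miR-211 plasmid at 0.22 (SE 0.10, unadjusted p 0.0387, edgeR, adjusted p 0.996) and RPP38 the lowest at -0.15 (SE 0.18). RPP25 and RPP14 were the highest and lowest with U1 siRNA, at 0.19 (SE 0.39) and -0.09 (SE 0.11). RPP21 had 89 counts in all and was below the filter.

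Of the 8 telomerase and H/ACA proteins, 7 were tested, and the median was -0.01 with the miR-211 plasmid and 0.01 with U1 siRNA. TERT, the reverse transcriptase, had 35 counts over the 12 libraries and was below the filter. DKC1, the dyskerin that holds telomerase RNA, had 748.2 ± 41.8 CPM with the miR-211 plasmid, 763.0 ± 28.9 CPM with the control plasmid, 720.9 ± 26.4 CPM for U1 siRNA and 712.2 ± 31.1 CPM for the scrambled oligo. NAF1, an assembly factor of H/ACA particles, was the lowest with U1 siRNA, at 5.32 ± 0.687 CPM, against 8.01 ± 0.740 CPM for the scrambled oligo (SD, n = 3 each). Its log2 fold change was -0.60 (SE 0.22, unadjusted p 0.0174, edgeR, adjusted p 0.9999), so it did not pass. GAR1 and NOP10 were the lowest and highest with the miR-211 plasmid, at -0.14 (SE 0.11) and 0.07 (SE 0.09), and WRAP53 was the highest with U1 siRNA at 0.06 (SE 0.10).

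All 5 genes for proteins that bind Y RNAs were tested. With the miR-211 plasmid 1 was higher and 4 lower in value, with a median of -0.12, and with U1 siRNA 1 was higher and 4 lower, with a median of -0.05. RO60, the Ro60 protein, had 327.7 ± 25.5 CPM with the miR-211 plasmid and 372.7 ± 22.1 CPM with the control plasmid (log2 fold change -0.16, SE 0.08), and it was the lowest with U1 siRNA at -0.06 (SE 0.07). SSB, the La protein that binds the 3′ ends of new RNA polymerase III transcripts, had -0.12 (SE 0.08) and -0.06 (SE 0.08). PTBP1 was the lowest with the miR-211 plasmid at -0.19 (SE 0.14). NCL, nucleolin, was the highest at 0.17 (SE 0.11) and had 0.00 with U1 siRNA.

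Of the 30 genes for RNA polymerase III and its factors, 29 were tested, and SNAPC2, with 44 counts in all, was below the filter. The median was -0.01 with the miR-211 plasmid (11 higher, 18 lower in value) and 0.01 with U1 siRNA (16 higher, 13 lower). BRF1, a factor that recruits the polymerase to transfer RNA genes, was the highest with the miR-211 plasmid, at 2.03 ± 0.129 CPM, against 1.26 ± 0.0508 CPM with the control plasmid (log2 fold change 0.71, SE 0.35). MAF1, a repressor of RNA polymerase III, was the lowest with the miR-211 plasmid at -0.31 (SE 0.32) and the highest with U1 siRNA, at 3.56 ± 1.02 CPM, against 1.92 ± 0.493 CPM with the scrambled oligo (0.87, SE 0.37). SNAPC1, a subunit of the complex that starts 7SK, Y RNA and RNase P RNA synthesis, was the lowest with U1 siRNA at -0.19 (SE 0.12).

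**Figure D5:**
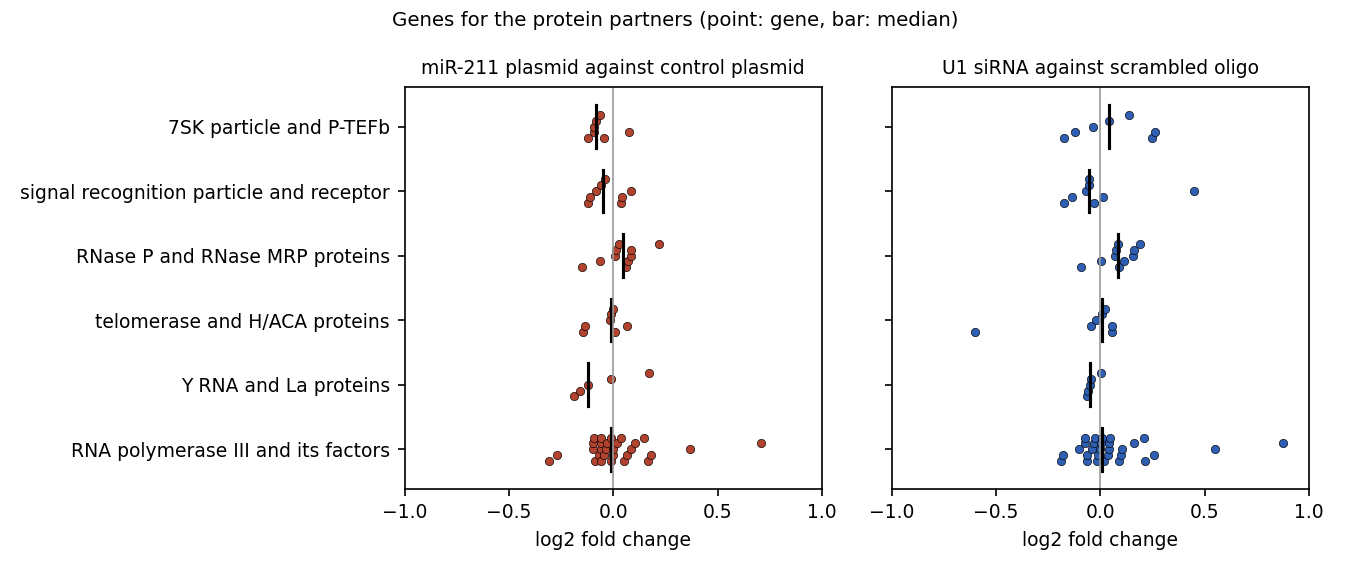
Points are the log2 fold changes of the partner genes tested, one panel for the miR-211 plasmid against the control plasmid and one for U1 siRNA against the scrambled oligo, with a bar at each list's median. The medians lie between -0.12 and 0.09, and the points farthest from 0 are BRF1 at 0.71, MAF1 at 0.87 and NAF1 at -0.60.

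Between the plasmid and the oligo experiment 0 partner genes were called as well, and the list medians ran from -0.06 to 0.06, against -0.02 over all genes tested. The partner nearest to the threshold was NCL, with 2011 ± 374.7 CPM with the miR-211 plasmid and 1825 ± 107.2 CPM with the control plasmid, against 1555 ± 39.3 CPM for U1 siRNA and 1541 ± 157.9 CPM for the scrambled oligo (log2 fold change 0.34, SE 0.08, edgeR, adjusted p 0.0856).

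Genes whose libraries varied most like RN7SL2 within the groups were taken from 9188 candidates. After group means were subtracted, NFE2L2, a transcription factor of the oxidative stress response, had the highest Pearson r with RN7SL2 over the 12 libraries, 0.92, followed by KCMF1 and ZNF66 at 0.90 each. Spearman's rho was 0.91, 0.88 and 0.87. Without U1 siRNA replicate 1 and miR-211 replicate 1, the libraries farthest from the median, r was 0.88, 0.85 and 0.87. The highest of so many candidates is chosen for its r, and the lowest reached -0.91, so these values describe the libraries only.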

How the data were processed

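RNA of 12 HEK293T libraries in 4 groups of 3 was measured. The authors deposited gene-level read counts that carry no normalization. The submitters' processing notes name STAR 2.7.2a, GRCh37 and hg19, and the tables have the layout of that aligner's gene counts: 1 unstranded column, 2 strand columns and 4 summary lines, which were kept out of totals and tests. All 58735 gene identifiers are those of GENCODE 29 on GRCh38. The alignment build could not be settled, so every coordinate here is from GENCODE 29, not from the deposited tables. RNA selection and the kit's strand are not given in the sources used here. Both strand columns summed to 0.907 to 1.01 times each other, so the unstranded column was used, in which reads of a gene and of an antisense gene cannot be told apart.

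CPM was computed from the deposited counts. Groups were compared with edgeR 4.0.16 in R 4.3.3 (TMM scaling, filterByExpr with a minimum count of 10, quasi-likelihood test, Benjamini-Hochberg adjusted p under 0.05 over all genes tested), with fold changes of the first-named group over the second. The script was tested on simulated data. DESeq2 1.42.0, other scalings, no filter, the strand columns, left-out libraries and a replicate block were alternatives. Ratios of summed counts have exact 95% intervals, and these and the limit of 3 counts cover counting error only. The labels do not say that replicates were separate cultures, so p-values measure spread between libraries that may be technical. No pair of replicates was close enough to be 1 library deposited again (chi-square over its degrees of freedom 2.15 to 7.25). To check pairing, each library's deviation from its group mean was correlated across genes between same-numbered libraries. This gave 0.248, 0.305 and 0.239 for the miR-211 and control plasmids, so these numbers were treated as possible pairs. For U1 siRNA and scrambled oligo the values were 0.140, 0.0907 and -0.0480, and the numbers were not taken to pair. Libraries of different numbers were not correlated and no cutoff was set, so the check cannot show that the numbers are pairs. All values given for partner genes are from fits without the replicate block. With the miR-211 plasmid 417 of 12685 genes had an unadjusted p under 0.05 in that fit, and 943 with the block (edgeR).

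The 8 genes, the 6 partner lists and the tests were chosen with earlier results of these data known. From each list the highest and lowest gene by log2 fold change is named, further genes being chosen after their values were seen, and the 3 genes most like RN7SL2 come from those with a mean of 5 CPM or more. Symbols chosen for copies (Y_RNA, 7SK, Metazoa_SRP and RNY5) matched 0 entries, so the RF00019 entries were used in their place, after seeing the data. The 50-base windows, the vault RNA genes and the sums over U6, snRNA and snoRNA genes were also chosen after seeing the data.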

Additional observations from a re-analysis of the deposited data

How the results depend on the processing

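RN7SL2 was not called in any comparison under any alternative run. RNY1 and RNY3 were tested only without the filter and were not called there. The 5 genes at 0 were not tested, so these runs say nothing of them. The number of genes called with the miR-211 plasmid was 1 and became 2 without the expression filter and 2 in each strand column. With U1 siRNA it was 0 and became 7 without the filter. For plasmid against oligo libraries it was 25, and it was 159 with DESeq2, 53 with library totals as scaling, 55 without the filter, 70 in strand column 4, 0 with the control plasmid and scrambled oligo libraries only, and 7 to 21 when 1 library was left out (7 without control plasmid replicate 2 and without scrambled oligo replicate 2). For the difference between both effects it was 1, and it was 0 with library totals, 3 without the filter, 0 in each strand column and 0 with the replicate block. The log2 fold change of RN7SL2 with U1 siRNA was 0.34 and ran from -0.42 to 0.69 with 1 library left out. In plasmid against oligo libraries it was -0.05 and ran from -0.22 to 0.35, being positive without miR-211 replicate 2 (0.16), control plasmid replicate 3 (0.02), U1 siRNA replicate 1 (0.35) or scrambled oligo replicate 1 (0.09). The difference between both effects, -0.01, was 0.0486 with DESeq2, 0.00312 with RLE scaling, 0.0424 without the filter, 0.241 in strand column 4 and 0.0635 with the replicate block, and it was -0.30 in strand column 3, -0.18 without U1 siRNA replicate 2 and -0.03 with library totals. The causes were not tested. With the replicate block the number of genes called with the miR-211 plasmid stayed 1 and with U1 siRNA 0, and RN7SL2 had 0.35 and 0.20. In the plasmid against oligo comparison no paired fit was possible because each number lies within 1 experiment. DESeq2 gave no adjusted p for RN7SL2 there. Of the 12 differences in mean CPM of RNY1 and RNY3 recomputed in the strand columns, 5 moved by more than the replicate spread of the unstranded values. With the miR-211 plasmid RNY1 had -0.11 CPM in column 3 (unstranded -0.41) and RNY3 0.06 CPM in column 3 (unstranded -0.02). With U1 siRNA RNY1 had 0.03 and -0.91 CPM in columns 3 and 4 (unstranded -0.52) and RNY3 -0.24 CPM in column 3 (unstranded 0.21). Over the 12 libraries RNY1 had only 31 and 32 counts in columns 3 and 4, and RNY3 6 and 14. Each column holds only part of the unstranded counts, and a dependence on strand was not tested.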

Other observations

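Vault RNA genes, whose short RNA polymerase III transcripts sit in the vault particle, were counted as well. They were looked at after other values had been seen. Of the 6 annotated entries 5 had counts, 676 in all, and VTRNA1-3 held 480 of them. Summed, they had 9.23, 5.56 and 7.89 CPM in replicates 1 to 3 with the miR-211 plasmid, against 8.67, 5.90 and 7.75 CPM with the control plasmid. With U1 siRNA they had 10.9, 7.75 and 8.89 CPM, against 9.40, 7.45 and 9.80 CPM with the scrambled oligo. The groups overlapped in both comparisons, and the ratios of totals were 0.995 (95% exact interval 0.793 to 1.25) and 1.03 (0.832 to 1.28). U1 siRNA replicate 2, which was far above the other libraries for 7SL, 7SK and U6 copies, was within the range of the others for vault RNAs.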
